A study of Mus musculus with 18 samples.

Results

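The 9 genes Mbp, Mog, Mag, Mobp, Cnp, Cldn11, Mal, Ugt8a and Gal3st1 encode components of the myelin sheath or enzymes that make its lipids. They were taken by symbol from gene-level read counts of the ventral dentate gyrus of male mice. All 9 were among the 34620 genes listed, and all 9 passed the filter on low counts that left 17421 genes for testing. The mice were adult males of the outbred strain Swiss Webster and were themselves genetically WT, in all 3 groups. WT males came from a separate line with a WT mother and a WT grandmother. F1 males were WT sons of mothers heterozygous for an inactive serotonin 1A receptor gene (maternal genotype 5HT1A-/+, grandmaternal genotype 5HT1A-/+). By the paper's methods their fathers were heterozygous as well, so F1 and WT differ in the genotype of both parents. F2 males had a WT mother and a grandmother of genotype 5HT1A-/+, because F1 females were mated with WT males. The labels name no agent for any group, and each group had 2 RNA-Seq libraries. By the paper's methods the offspring used for RNA-Seq came from at least 3 litters. The number of animals behind a library is not given in the sources used here. Nothing states how the litters were divided over the libraries or that the replicates came from separate animals. The p-values therefore measure the spread between these libraries.

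Oligodendrocytes wrap axons in layers of membrane that are compacted by Mbp, held at their edges by adhesion molecules such as Mag, and enriched in the glycolipids galactosylceramide and sulfatide. The dentate gyrus is made up mostly of granule neurons, whose cell layer is poor in myelin, and the neighbouring hilus and molecular layer hold myelinated fibres. The tissue was cut out of frozen sections around the granule cell layer. In such bulk samples, fewer cells of a type and less RNA per cell cannot be told apart.

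Between 26358165 and 33727936 reads per library were assigned to genes, and a further 12.2 to 20.7% of reads were counted as matching no gene. The paper names a strict counting mode, in which this class can also hold reads that lie partly inside an exon. Granule cell markers were well counted, with Prox1, a transcription factor that defines granule neurons, at 227.7 to 345.1 CPM (read counts scaled to a common library size with TMM factors). The choroid plexus marker Ttr was at 0.187 to 1.1 CPM in the 6 libraries. WT replicate 1 was the lowest of the 6 libraries for 9 of the 9 myelin genes. The fold changes of the 9 genes against WT are therefore given below with and without it. Leaving out the lowest library raises the WT mean and leaves WT with 1 library. Smaller differences without it follow from the choice of library and are not a separate test.

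All 9 genes are annotated as protein-coding (mm9, GENCODE M1). Mobp lies on chromosome 9 from 120058860 to 120090602, Cnp on chromosome 11 from 100436218 to 100453043, and Gal3st1 on the same chromosome from 3883639 to 3899329. Cldn11 and Ugt8a lie on chromosome 3, from 31048868 to 31063246 and from 125568277 to 125641468. Mag is on chromosome 7 from 31684202 to 31699851, Mal on chromosome 2 from 127458962 to 127482431, and Mog on chromosome 17 from 37147691 to 37160343. The exons of Cnp share 154 bases with those of Dnajc7 on the opposite strand, and the library kit did not mark strand, so reads in that overlap cannot be assigned to either gene.

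Promoter windows of 300 bases, with 250 before the transcription start and 50 from the start on, were available from RefSeq (GRCm38.p6) for 8 of the 9 genes, in 12 windows. Each window was found once, base for base, in mm9, and the positions below are on that build. The 4 shown are those of Mag and Cnp, which held the most kinds of searched motif, of Mobp, which held the most SOX motifs, and of Cldn11, the member with the highest fold change. Of the several windows of Mag, the one nearest to the annotated start is shown. They are printed in the direction of transcription, and capitals mark the SOX core (ACAAAG or ACAATG) and the core of the site of the myelin regulator Myrf (CTGGCAC), searched on both strands.
Mag, minus strand, chr7:31699833-31700132: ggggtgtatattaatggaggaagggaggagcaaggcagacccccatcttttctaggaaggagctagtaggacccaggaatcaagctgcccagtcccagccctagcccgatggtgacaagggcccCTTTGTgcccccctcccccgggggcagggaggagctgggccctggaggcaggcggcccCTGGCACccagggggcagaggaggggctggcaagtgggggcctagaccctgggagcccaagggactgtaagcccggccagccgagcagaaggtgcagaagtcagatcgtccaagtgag
Cnp, plus strand, chr11:100436003-100436302: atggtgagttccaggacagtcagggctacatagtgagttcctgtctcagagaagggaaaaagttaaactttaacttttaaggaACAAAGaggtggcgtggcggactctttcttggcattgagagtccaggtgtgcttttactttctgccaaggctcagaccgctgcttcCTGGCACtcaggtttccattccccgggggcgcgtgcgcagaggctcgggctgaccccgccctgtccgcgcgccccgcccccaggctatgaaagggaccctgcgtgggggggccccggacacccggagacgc
Mobp, plus strand, chr9:120058610-120058909: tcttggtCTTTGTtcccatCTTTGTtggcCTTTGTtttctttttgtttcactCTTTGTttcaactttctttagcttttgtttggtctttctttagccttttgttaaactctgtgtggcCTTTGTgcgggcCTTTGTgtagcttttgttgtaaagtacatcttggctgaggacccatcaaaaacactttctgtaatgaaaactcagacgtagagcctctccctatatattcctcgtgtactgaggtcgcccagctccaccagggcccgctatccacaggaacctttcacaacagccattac
Cldn11, plus strand, chr3:31048592-31048891: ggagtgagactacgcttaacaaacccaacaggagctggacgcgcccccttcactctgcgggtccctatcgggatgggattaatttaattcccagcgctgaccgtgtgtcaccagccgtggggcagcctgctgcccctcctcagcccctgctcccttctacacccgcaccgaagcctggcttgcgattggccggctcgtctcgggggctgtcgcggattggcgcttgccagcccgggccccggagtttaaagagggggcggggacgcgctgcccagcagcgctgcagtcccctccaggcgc

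A SOX core was found for 4 of the 8 genes (Mag, Mobp, Gal3st1 and Cnp), against 31.7% of the 27025 genes in the RefSeq set. The Mobp window held it 6 times, in each case read from the opposite strand as CTTTGT. The Myrf core was found for Mag and Cnp, against 5.73% of all genes. Windows of the remaining 6 genes, Cldn11 and Mal among them, did not hold it. An E-box (CANNTG), the motif bound by Olig factors, was found for 4 of the 8 genes (Ugt8a, Mag, Gal3st1 and Cnp), against 75.0% of all genes. Matches to different motifs did not overlap in these windows, and a match describes letters in the window and is not a measured binding site.

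On the scale of CPM per kilobase of exon (FPKM), Mbp, the major cytoplasmic protein of compact myelin, had the highest level of the 9, with a mean of 103.1 over the 6 libraries. Mobp, another small basic protein of compact myelin, followed at 40.4, and Cnp, an enzyme of the cytoplasmic channels of myelin, at 34.0. Mal, a membrane raft protein, was at 27.9, Cldn11, the claudin that forms the tight junctions between myelin layers, at 25.6, and the adhesion molecule Mag at 19.5 FPKM. Mog, a protein of the outermost myelin surface, was at 13.5, and the lipid enzymes Ugt8a and Gal3st1 were lowest at 6.55 and 3.15 FPKM. The ranges over the 6 libraries overlapped for each pair of neighbours in this order. Within a library, however, the upper gene of a neighbouring pair was higher in 6 of 6 libraries for 6 of the 8 pairs, and in 5 of 6 for Mobp over Cnp and for Cldn11 over Mag. Thus the order of the genes changed little from library to library while the levels did.

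The 9 genes varied together across the 6 libraries. Their summed level was 758.4 and 1402 CPM in the 2 WT libraries, 2068 and 1525 CPM in F1, and 1057 and 2058 CPM in F2 (replicates 1 and 2 in that order here and throughout). F1 replicate 1 and F2 replicate 2 were the 2 highest libraries for every member, F1 replicate 2 came next for 9 of 9, and WT replicate 2 and F2 replicate 1 followed in either order. The 36 pairwise Pearson correlations of log2 CPM over the 6 libraries ran from 0.863 to 0.993 with a median of 0.968. These points share library, depth and dissection, and the values are a description. The 9 genes are therefore not 9 independent observations of a condition.

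**Figure D1:**
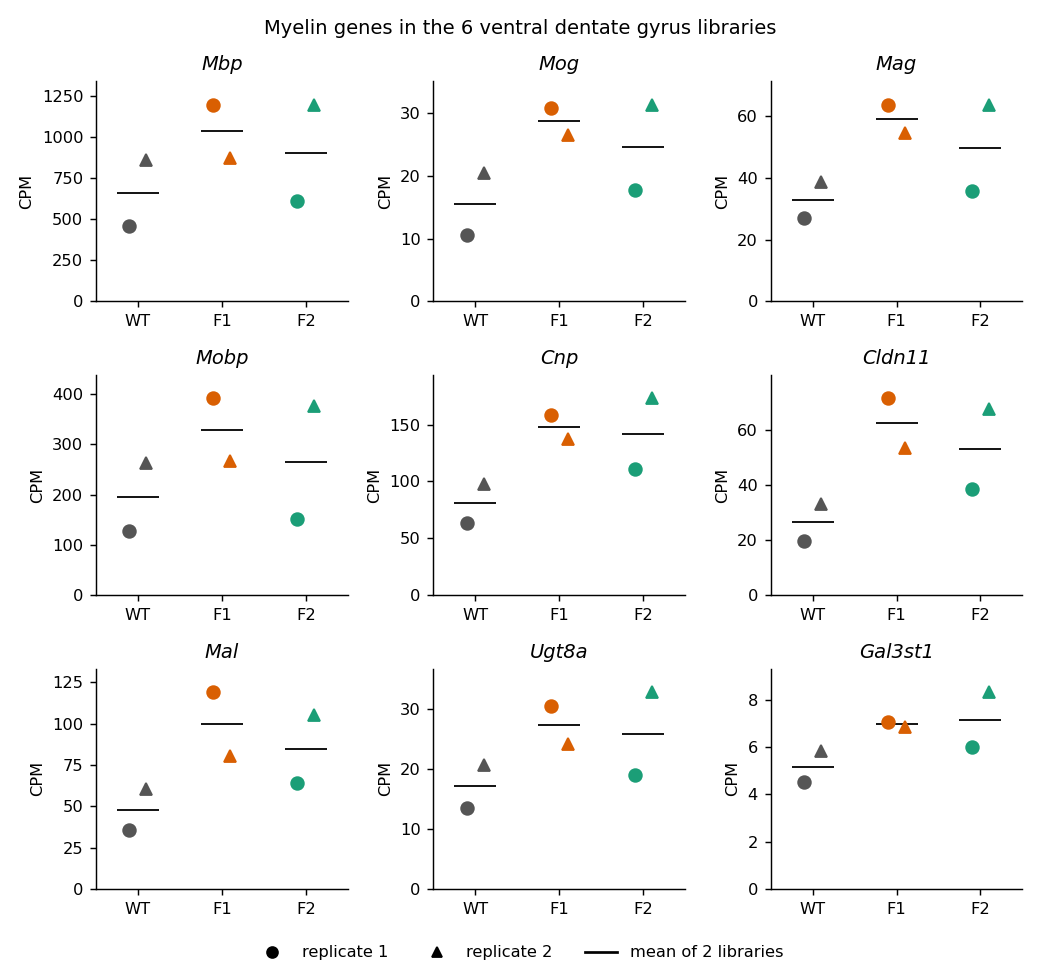
Expression of the 9 myelin genes in CPM (y axis, from 0) in WT, F1 and F2, with a circle for replicate 1, a triangle for replicate 2 and a line for the mean. WT replicate 1 is the lowest point in every panel, both F1 points lie above both WT points, and the F2 replicates differ by 1.39- to 2.48-fold.

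The group means of F1 and WT differed by 1.35-fold (Gal3st1) to 2.36-fold (Cldn11) in the fit, and replicates of one group differed as well. In WT, replicate 2 was 1.30 (Gal3st1) to 2.08 (Mobp) times replicate 1. In F2 it was 1.39 (Gal3st1) to 2.48 (Mobp) times replicate 1. In F1 the difference was smaller and went the other way, at 0.676 (Mal) to 0.972 (Gal3st1) times. The share of reads counted as matching no gene was 17.7 and 20.7% in WT, 13.8 and 12.2% in F1, and 13.9 and 17.4% in F2. Within each group it was higher in the replicate with the higher myelin genes. Between groups it went the other way, with both WT libraries above every F1 and F2 library. Its part in the differences of the myelin genes was not tested.

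The first comparison asked whether the myelin genes differed in WT males born to 5HT1A-/+ parents. In F1, 4 of the 9 genes rose against WT at an adjusted p under 0.01 (edgeR's exact test, Benjamini-Hochberg over all 17421 genes). These were Cldn11, Mal, Cnp and Mag. None of the 9 fell. Of all genes tested, 3.77% were called as higher and 8.54% as lower. Both F1 libraries lay above both WT libraries for 9 of 9 members, as they did for 29.8% of all genes. The median log2 fold change of the 9 was 0.85, and that of all genes tested was 0.01. With edgeR's quasi-likelihood test, in contrast, 0 of the 9 were under 0.01 (5.91% of all genes), 4 were under 0.05 (17.3%) and 6 had an unadjusted p under 0.05 (33.3%). DESeq2 called 0 of the 9 at 0.01, and 9.46% of all genes. Without WT replicate 1 the median log2 fold change of the 9 was 0.49, and without WT replicate 2 it was 1.23.

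Cldn11 had the largest difference of the 9. It was at 19.8 and 33.2 CPM in WT and at 71.3 and 53.3 CPM in F1. The F1 libraries did not overlap the WT libraries, for a rise of 1.24 on the log2 scale (standard error 0.26, adjusted p = 5.67e-05 by edgeR's exact test). Leaving out WT replicate 1 gave 0.91 with an adjusted p of 0.0185 in edgeR.

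Mal was at 35.4 and 60.7 CPM in WT and at 119.0 and 80.4 CPM in F1. This was a rise of 1.05 on the log2 scale (standard error 0.26, adjusted p = 0.000869, edgeR). The lower F1 library was above the higher WT library, and without WT replicate 1 the value was 0.72 (adjusted p = 0.0739, edgeR).

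Cnp was at 63.3 and 98.0 CPM in WT and at 158.6 and 137.4 CPM in F1, a log2 fold change of 0.88 (standard error 0.21, adjusted p = 0.000631, edgeR). Mag was at 27.0 and 38.7 CPM in WT and at 63.8 and 54.6 CPM in F1, a log2 fold change of 0.85 (standard error 0.23, adjusted p = 0.00265, edgeR). For both genes the groups did not overlap. Without WT replicate 1 the values were 0.60 for Cnp and 0.62 for Mag, with adjusted p-values of 0.0675 and 0.123 in edgeR. Without F1 replicate 1, of the 4 genes only Cldn11 stayed under 0.01 (1.02, adjusted p = 0.00631, edgeR).

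The other 5 members had positive differences that did not pass. Mog was at 10.5 and 20.4 CPM in WT and at 30.8 and 26.5 CPM in F1, with a log2 fold change of 0.89 (standard error 0.28) and an adjusted p of 0.014 by edgeR, between the thresholds of 0.01 and 0.05. Ugt8a, the enzyme that makes galactosylceramide, was at 13.6 and 20.6 CPM in WT and at 30.5 and 24.2 CPM in F1, with 0.68 (standard error 0.25) and an adjusted p of 0.036 by edgeR. Both genes had groups that did not overlap and fell short of the stricter threshold. Their differences without WT replicate 1 were 0.49 and 0.41.

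The members with the highest FPKM, Mbp and Mobp, had the largest standard errors, 0.29 and 0.36. Mbp was at 457.4 and 861.0 CPM in WT and at 1196 and 875.8 CPM in F1. Its log2 fold change of 0.65 had a 95% interval from 0.08 to 1.23 and an adjusted p of 0.101 by edgeR. Mobp, which was at 126.8 and 263.4 CPM in WT and at 391.1 and 266.1 CPM in F1, had 0.75 with an interval from 0.05 to 1.45 and an adjusted p of 0.125 by edgeR. The lower F1 library exceeded the higher WT library by 2.24% of the WT mean for Mbp and by 1.37% for Mobp, and without WT replicate 1 their differences were 0.27 and 0.32. Gal3st1, which sulfates galactosylceramide to sulfatide, was at 4.5 and 5.84 CPM in WT and at 7.06 and 6.87 CPM in F1, with 0.43 (interval from -0.03 to 0.89) and an adjusted p of 0.196 by edgeR. Its difference without WT replicate 1 was 0.26.

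**Figure D2:**
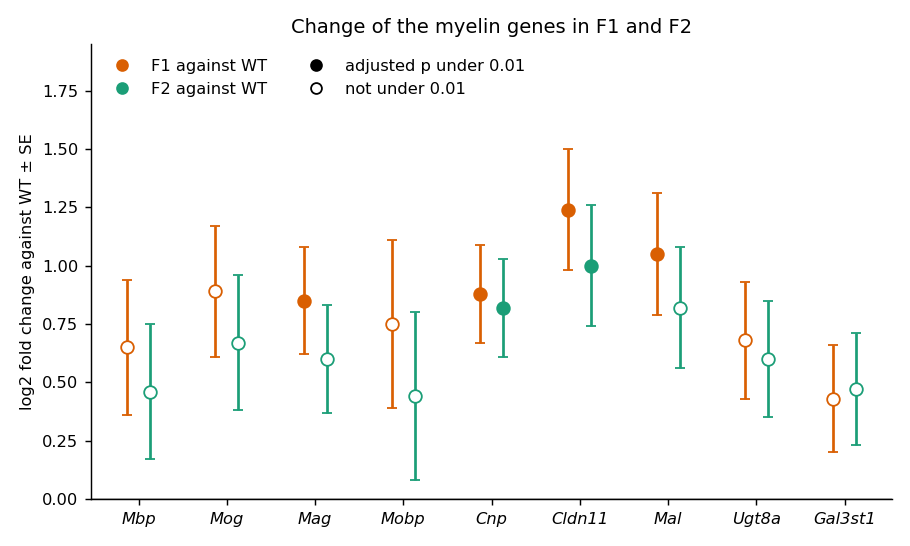
Log2 fold change of each myelin gene against WT in F1 and F2 (points), with bars for 1 standard error and filled points where edgeR's exact test gave an adjusted p under 0.01. All 18 values are above 0. They span 0.43 to 1.24 for F1 and 0.44 to 1.00 for F2, and 6 are filled.

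The second comparison concerned WT males with a WT mother and a 5HT1A-/+ grandmother. In F2, 2 of the 9 genes rose against WT at an adjusted p under 0.01 by edgeR's exact test, namely Cldn11 and Cnp. None of the 9 fell, while 3.86% of all genes tested were called as higher and 8.10% as lower. Both F2 libraries lay above both WT libraries for 4 of the 9 (Cnp, Cldn11, Mal and Gal3st1) and for 31.0% of all genes. For the other 5, F2 replicate 1 lay below WT replicate 2 and the groups overlapped. The median log2 fold change of the 9 was 0.60, and that of all genes was -0.00. The quasi-likelihood test of edgeR called 0 of the 9 at 0.01 (5.72% of all genes) and 2 at 0.05 (17.2%), and 7 had an unadjusted p under 0.05 (33.2%). DESeq2 called 0 of the 9 at 0.01, and 9.44% of all genes. The F1 and F2 comparisons use the same WT libraries, and their values are set side by side here without a test of their likeness.

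Cldn11 was at 38.6 and 67.5 CPM in F2, a log2 fold change of 1.00 from WT (standard error 0.26, adjusted p = 0.00162, edgeR). Cnp was at 111.3 and 173.0 CPM in F2, 0.82 above WT on the log2 scale (standard error 0.21, adjusted p = 0.00163, edgeR). Each had both F2 libraries above both WT libraries. Neither stayed under 0.01 without WT replicate 1 (0.68 and 0.54, adjusted p = 0.108 and 0.115, edgeR) or without F2 replicate 2 (0.55 and 0.47, adjusted p = 0.166 and 0.155, edgeR). Without WT replicate 2, on the other hand, 4 of the 9 were called (8.01% of all genes), and without F2 replicate 1, 5 of the 9 (3.88% of all genes). Without WT replicate 1 or without F2 replicate 2, 0 of the 9 were called (4.47 and 5.37% of all genes), and the median log2 fold change was 0.34 or 0.21.

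Mal was at 64.2 and 105.4 CPM in F2, with a log2 fold change of 0.82 and an adjusted p of 0.0131 by edgeR. Mag was at 35.8 and 63.8 CPM, with 0.60 and an adjusted p of 0.0458 by edgeR. Mog, at 17.8 and 31.3 CPM, had 0.67, and Ugt8a, at 19.0 and 32.9 CPM, had 0.60, with adjusted p-values of 0.0803 and 0.0695 in edgeR. In these 4 genes F2 replicate 1 lay close to WT replicate 2, on one side or the other. The differences without WT replicate 1 were 0.49 for Mal, 0.37 for Mag, 0.27 for Mog and 0.34 for Ugt8a. Without F2 replicate 2 they were 0.43, 0.13, 0.21 and 0.16 in the same order of genes.

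Mbp was at 612.1 and 1199 CPM in F2, with a log2 fold change of 0.46 and a 95% interval from -0.12 to 1.03. Mobp was at 151.8 and 376.9 CPM, with 0.44 and an interval from -0.26 to 1.14. Both values changed sign without F2 replicate 2, to -0.10 and -0.36, and without WT replicate 1 they were 0.08 and 0.01. Gal3st1 was at 5.98 and 8.32 CPM, with 0.47 and an adjusted p of 0.154 by edgeR, and its difference was 0.30 without WT replicate 1 and 0.22 without F2 replicate 2.

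**Figure D3:**
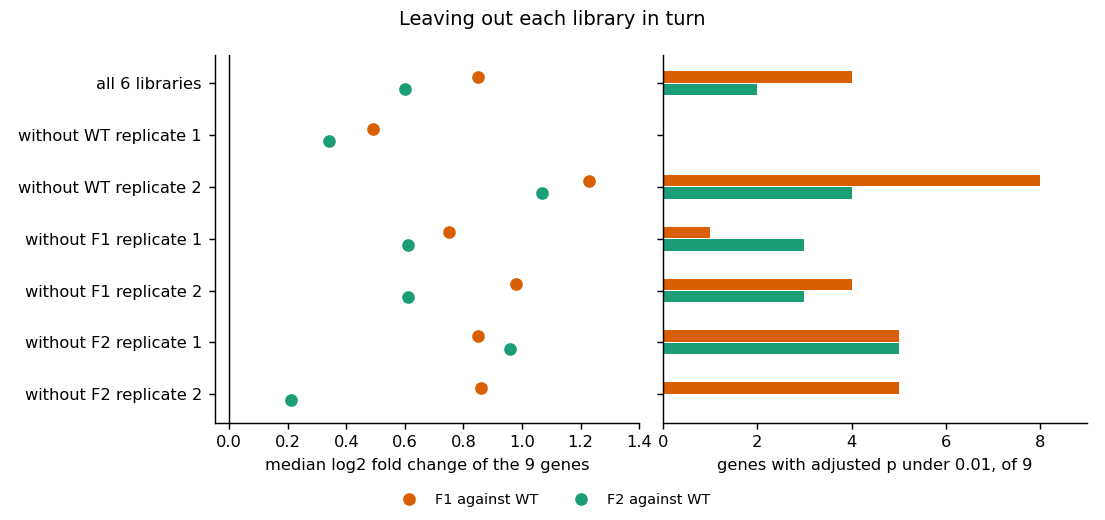
Median log2 fold change of the 9 myelin genes (left, x axis) and the number of them with an adjusted p under 0.01 by edgeR's exact test (right, x axis) with all 6 libraries and without each in turn. Without WT replicate 1 no gene passes in either comparison, and the medians are 0.49 for F1 and 0.34 for F2. Without WT replicate 2 they are 1.23 and 1.07, with 8 and 4 genes.

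F2 was then compared with F1, the generation before. Of the 9 genes, 0 were called by edgeR's exact test (0.740% of all genes), and 0 had an unadjusted p under 0.05 (1506 of all 17421 genes). The quasi-likelihood test and DESeq2 also called 0 of the 9, beside 0.0115 and 0.591% of all genes. With so few calls over all genes, 0 of 9 says nothing about the members. The log2 differences ran from -0.31 (Mobp) to 0.04 (Gal3st1), with 8 of 9 below 0, and the libraries of the groups overlapped for all 9. Of all 17421 genes, both F2 libraries lay above both F1 libraries for 3375 and below them for 3438. The direction of the members' differences rested on single libraries. Without F2 replicate 1, 9 of 9 were above 0 (median 0.20), without F1 replicate 1, 5 of 9 (median 0.05), and without F2 replicate 2, 0 of 9 (median -0.69). The 95% interval of Mobp was -1.02 to 0.39 and that of Cnp -0.47 to 0.36, and such intervals do not show that the groups were alike.

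The share of each gene in the summed myelin transcripts was set side by side for the 6 libraries. Mbp made up 60.3 and 61.4% of the summed CPM of the 9 genes in WT, 57.8 and 57.4% in F1, and 57.9 and 58.3% in F2. Cldn11 made up 2.61 and 2.37% in WT, 3.45 and 3.50% in F1, and 3.65 and 3.28% in F2. Mal made up 4.66 and 4.33% in WT, 5.75 and 5.27% in F1, and 6.08 and 5.12% in F2. Mog made up 1.39 and 1.45% in WT and 1.49 to 1.74% in the other 4 libraries. For these 4 genes the 2 WT libraries did not overlap the other 4, although WT replicate 2 and F2 replicate 1 crossed in the summed level. The shares of a library have a fixed total, so a lower share of Mbp leaves more for the rest. The 4 genes are therefore not separate observations, and no such count was made for genes outside the 9. The shares of Mobp (14.4 to 18.9%), Cnp (6.99 to 10.5%), Mag (2.76 to 3.58%), Ugt8a (1.47 to 1.80%) and Gal3st1 (0.342 to 0.594%) overlapped between WT and the rest. The shares were not tested, neither as 2 libraries against 4 nor between single groups. For F1 or F2 alone against WT, 2 libraries against 2, the smallest p of a two-sided exact permutation test is 0.333.

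Other genes of the myelin sheath and of mature oligodendrocytes were counted in the same fit. Of 28 such genes, all tested, 6 rose and 1 fell in F1, and 7 rose and 0 fell in F2, by edgeR's exact test at 0.01. The share of all genes called as higher was 3.77% in F1 and 3.86% in F2, and that called as lower 8.54 and 8.10%. At 0.01 the quasi-likelihood test called 1 of the 28 (3.57%) in each comparison, below the 5.91 and 5.72% of all genes. At 0.05 it called 9 of the 28 in each, beside 17.3 and 17.2% of all genes. DESeq2 called 5 and 6 of the 28 at 0.01, beside 9.46 and 9.44% of all genes. In the fit of the exact test the median log2 fold change was 0.60 in F1 and 0.56 in F2. Without WT replicate 1, 0 of the 28 were called in either comparison, and without F2 replicate 2, 0 in F2.

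Among 11 further sheath proteins, Tspan2, a tetraspanin of myelin, rose in both. It was at 24.0 and 41.2 CPM in WT, 63.5 and 54.5 CPM in F1, and 52.3 and 69.5 CPM in F2, up by 0.86 and 0.90 on the log2 scale (adjusted p = 0.000864 and 0.000407, edgeR). The proteolipid gene Pllp rose in F2 (0.73, adjusted p = 0.00416, edgeR) and had 0.65 in F1 (adjusted p = 0.0124, edgeR). Hapln2, a matrix protein of the nodes of Ranvier, differed by -0.01 and -0.00.

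Among 17 genes of mature oligodendrocytes, Enpp6, Adamts4, Gpr37, Tmem125 and Ndrg1 rose in F1 and in F2. Enpp6, a choline phosphodiesterase high in newly formed oligodendrocytes, was low, at 0.559 and 0.845 CPM in WT, 2.71 and 1.94 CPM in F1, and 1.83 and 2.19 CPM in F2. Its log2 fold changes of 1.74 and 1.53 (adjusted p = 1.82e-05 and 0.00041, edgeR) were the largest of the 28. Gpr37, a receptor of myelinating cells, was at 29.8 and 37.5 CPM in WT, 47.3 and 49.4 CPM in F1, and 48.6 and 57.4 CPM in F2, with 0.53 and 0.66. Dusp15, a phosphatase gene, fell by 0.73 on the log2 scale in F1 (adjusted p = 0.00316, edgeR), from 14.2 and 14.9 CPM to 10.3 and 7.19 CPM, and had -0.50 in F2 (adjusted p = 0.0556, edgeR).

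The lipid pathway around Ugt8a and Gal3st1 gave 1 call among 5 genes. Fa2h, which hydroxylates the fatty acids of galactosylceramide, rose in F1 from 5.29 and 8.63 CPM to 14.8 and 13.9 CPM, a log2 fold change of 1.05 (adjusted p = 0.00451, edgeR), and was at 8.75 and 17.3 CPM in F2 (0.91, adjusted p = 0.0166, edgeR). Galc and Arsa, the lysosomal enzymes that break down galactosylceramide and sulfatide, had -0.27 and -0.09 in F1 and -0.27 and -0.08 in F2. Lass2, the older symbol of the ceramide synthase Cers2, had -0.17 and -0.20, and none of these 3 passed. Psap, a precursor of lysosomal activator proteins that is not limited to oligodendrocytes, had 0.34 in F1 (adjusted p = 0.0184, edgeR) and 0.22 in F2.

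Of 9 transcription factors of the lineage, 1 rose and 1 fell in each comparison. Beside the 3.77 and 3.86% of all genes called as higher and the 8.54 and 8.10% called as lower, a single call in a list of this length, here and in the other short lists, says nothing about the list. Olig1 was at 45.6 and 50.1 CPM in WT, 69.3 and 67.3 CPM in F1, and 60.6 and 82.3 CPM in F2, a rise of 0.51 and 0.58 on the log2 scale (adjusted p = 0.00464 and 0.00113, edgeR). Zfp488, a zinc finger partner of Olig2, was at 35.0 and 43.1 CPM in WT, 25.9 and 20.0 CPM in F1, and 20.3 and 20.2 CPM in F2. It fell by 0.76 and by 0.95 on the log2 scale (adjusted p = 8.8e-05 and 7.3e-07, edgeR), with each F1 and F2 library below both WT libraries. Sox10 had 0.53 and 0.42 and Gm98, the older symbol of Myrf, 0.45 and 0.39, without passing.

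Of 8 genes of oligodendrocyte precursors, 2 rose in F1 and 2 in F2, beside 3.77 and 3.86% of all genes called as higher. In each comparison 7 of the 8 had a positive log2 fold change. Matn4 went the other way in both (-0.19 and -0.12) and was not called. Pdgfra, the growth factor receptor that marks precursors, was at 16.3 and 23.3 CPM in WT, 29.0 and 35.0 CPM in F1, and 36.2 and 36.6 CPM in F2, a rise of 0.69 and 0.88 on the log2 scale (adjusted p = 0.00131 and 2.28e-05, edgeR). Gpr17, a receptor of differentiating precursors, rose in F1 (0.82, adjusted p = 2.14e-07, edgeR) and had 0.45 in F2 (adjusted p = 0.0116, edgeR), while the membrane protein gene Lhfpl3 rose in F2. The summed level of the 8 was 96.0 and 109.4 CPM in WT, 124.7 and 150.8 CPM in F1, and 147.0 and 147.0 CPM in F2. This sum was higher in all 4 F1 and F2 libraries than in either WT library, whereas the summed myelin genes of F2 replicate 1 lay below WT replicate 2.

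Of 9 myelin inhibitors and their receptors, 8 were tested. Lingo1, a partner of the Nogo receptor on neurons, rose in F1 from 136.5 and 128.9 CPM to 208.5 and 194.2 CPM, a log2 fold change of 0.60 (adjusted p = 2.66e-05, edgeR), and had 0.33 in F2 (adjusted p = 0.0406, edgeR). The other 7, with Rtn4 (Nogo) and its receptor Rtn4r among them, were not called in either comparison.

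The genes whose pattern was most like that of the 9 were ranked by Pearson's r with the mean standardized log2 CPM of the members over the 6 libraries, among the 12320 other genes that averaged 100 counts or more per library. Among the first 10 were Cntn4 (0.998), Gjb1 (0.998), Ppp1r14a (0.997), Rhog (0.997), Sdr39u1 (0.995), Chn2 (0.991), Nkx6-2 (0.990), Trf (0.990) and Pde8a (0.988). Of these, Gjb1, a connexin of myelin, Ppp1r14a and Trf belong to the 28 genes, and Nkx6-2 is an oligodendrocyte transcription factor. Of the 28, 24 had enough counts to be ranked and 14 had r above 0.9, against 140 of all 12320 (1.14%). With 6 libraries in common these values are descriptive.

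Markers of other cells moved with the groups to different extents. The 8 astrocyte markers summed to 1314 and 1361 CPM in WT, 1548 and 1892 CPM in F1, and 2111 and 1733 CPM in F2, and 1 of them rose in F1 and 4 in F2. The 8 microglia markers summed to 127.8 and 129.8 CPM in WT, 153.6 and 177.0 CPM in F1, and 197.3 and 170.7 CPM in F2, and 0 rose in F1 and 5 in F2. Of all genes tested, the exact test called 3.77% as higher in F1 and 3.86% in F2. The quasi-likelihood test of edgeR called fewer markers: 0 of the 8 astrocyte markers for F1, 1 for F2, and 0 of the 8 microglia markers for either. It called 5.91 and 5.72% of all genes. In the 2 WT libraries the astrocyte and microglia sums lay close together, whereas the summed myelin genes were at 758.4 and 1402 CPM. The 7 granule cell markers summed to 1126 and 1165 CPM in WT, 972.5 and 1220 CPM in F1, and 1535 and 1349 CPM in F2, with 0 called. Among 6 endothelial markers 1 rose in each comparison, among 7 interneuron markers 1 rose in F1 and 2 in F2, and among 8 markers of mossy and CA pyramidal cells 1 rose in F1 and 0 in F2. The 3 choroid plexus markers tested were not called. The part of the cell makeup of each dissection in the differences of the myelin genes was not tested.

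**Figure D4:**
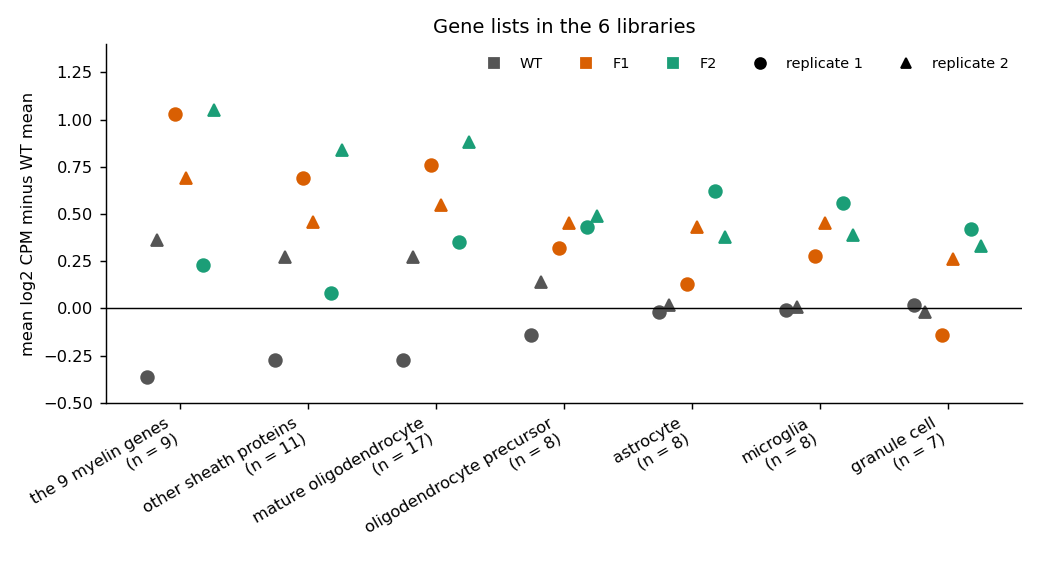
Mean log2 CPM of each gene list minus its mean in WT (y axis), for each library (circle for replicate 1, triangle for replicate 2) in WT, F1 and F2, with the number of genes tested below each list. The 9 myelin genes lie at -0.36 and 0.36 in WT, and the astrocyte markers at -0.02 and 0.02.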

How the data were processed

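The authors prepared RNA from microdissected ventral dentate gyrus with a kit that does not mark strand, mapped reads to mm9 with TopHat (TopHat2 2.0.2 in the submitters' processing notes), counted them per gene with HTSeq and deposited raw counts. The members and gene lists here were chosen with earlier results of these data known. Each of 6 libraries was assigned to WT, F1 or F2 by its labels. Bisulfite samples were not analysed here.

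From the counts, edgeR 4.0.16 (R 4.3.3) was run with tagwise dispersion, as the study's methods name, over the 3 groups (common dispersion 0.0113, a variation of 10.6%), and with Benjamini-Hochberg adjustment over 17421 genes. TMM scaling, the filterByExpr filter and the exact test were chosen here. The threshold of 0.01 is the one in the study's results, and its methods name 0.05, which was run as an alternative. Standard errors and 95% intervals come from the dispersion and counts. Scripts were tested on simulated data. FPKM uses the union exon length in GENCODE M1, whose symbols matched once for 32955 of 34620 genes. Named genes are all members, the genes of each list that passed or else examples, and the 10 most similar genes. Hapln2, Galc, Arsa, Lass2, Psap, Sox10, Gm98, Rtn4, Rtn4r, Prox1 and Ttr were named outside this rule for their roles, with their values known. Matn4 was named for its direction, opposite to that of the other precursor genes. One listed gene is not reported here by name. A total of 18 alternative settings were run, with DESeq2 1.42.0 and edgeR's quasi-likelihood test among them. No 2 libraries of a group agreed within sampling noise (chi-square per degree of freedom 19.2 to 24.9). Depths of 26358165 to 33727936 reads leave counting error small beside replicate spread for well-counted genes. This does not extend to genes with few reads, such as Enpp6 with 19 and 24 reads in WT.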

Additional observations from a re-analysis of the deposited data

How the results depend on the processing

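The calls depended on the setting. The direction mostly held, but a change of test or dispersion refits nearly the same log2 fold change and could hardly turn it. Leaving out a library of a group compared could turn it. Of 324 recomputed log2 fold changes of the members against WT, 278 kept direction and side of the threshold, 27 lost the call, 17 gained it and 2 changed sign (Mbp -0.10 and Mobp -0.36 in F2, both without F2 replicate 2, with ranges over the libraries left out of -0.10 to 0.99 and -0.36 to 1.07). The number of members called, 4 in F1 and 2 in F2, was 0 and 0 by edgeR's quasi-likelihood test and by DESeq2, and at a threshold of 0.05 the exact test called 6 and 4. Of the 28 other genes, 7 were called in each comparison. The quasi-likelihood test called 1 and 1 of them, DESeq2 5 and 6, and a threshold of 0.05 gave 14 and 11. Dispersion from the groups compared alone gave 11 in F1, beside 10.3% of all genes. Leaving out each library in turn gave a median log2 fold change of the members of 0.49 to 1.23 in F1 and 0.21 to 1.07 in F2. A fit that leaves WT with 1 library assumes that it varies like the other groups. F2 against F1 gave 0 members under every alternative, although the number of members above 0 went from 1 to 9 without F2 replicate 1 and to 5 without F1 replicate 1. The other normalizations and count filters left all 4 counts unchanged and moved the median of all genes by at most 0.03. The labels do not say whether equal replicate numbers mark pairs of libraries. Deviations of same-numbered libraries correlated at -0.0269, -0.083 and -0.182 between groups. These values show no shared deviation, but they cannot settle whether libraries were handled in pairs. With the replicate block, the quasi-likelihood test called 2 and 0 members and 3 and 3 of the other genes, and the likelihood-ratio test 5 and 3 members and 12 and 9 of the others. A crossed pairing, chosen after seeing the data, gave 4 and 2 members and 8 and 7 others (15.4 and 15.8% of all genes). The cause of these differences was not tested. The effect of depth was not tested; the member with the lowest level, Gal3st1, averaged 5.17 CPM in WT.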
